A study of Mus musculus with 27 samples.

Results

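Hypoxia-inducible genes are genes whose transcription is switched on when a cell is short of oxygen. The 10 genes described here, Vegfa, Adm, Slc2a1, Hk2, Pgk1, Ldha, Car9, Bnip3, Egln3 and Ndrg1, are established targets of the hypoxia-inducible factors (HIF). Every probe annotated to them was taken, which gave 11 probes of 29922 on the array and 10 genes of the 16637 that had a symbol. Ndrg1 had 2 probes and the others 1 each. Where 1 value stands for a gene, it is that of its brightest probe. The question was whether mucosa behind a closed nostril showed the transcript pattern of low oxygen.

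RNA was taken from olfactory mucosa. The mice were females of the albino FVB strain, 25 days old and housed in groups. Cautery had sealed 1 nostril of the treated mice (unilateral naris occlusion) and left the other untouched. The 3 groups were mucosa from the occluded side, mucosa from the open side of the same individuals, and mucosa of other mice that received a sham cautery on the muzzle, called normal. The series' design text calls the last group untreated. Each group had 3 biological replicates, and each replicate was read on 3 arrays, 27 in all. The sources used here give neither the time for which the nostril had been closed nor a measurement of tissue oxygen. Since whole mucosa was extracted, fewer cells of a type and less RNA per cell cannot be told apart.

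HIF is a pair of proteins, an oxygen-regulated alpha subunit and its constant partner Arnt. With oxygen present, prolyl hydroxylases of the Egln family mark the alpha subunit for destruction through the Vhl protein. When oxygen is short the marking stops, the alpha subunit accumulates, and the pair binds a short DNA motif near genes for blood vessel growth, glucose uptake, glycolysis and acid removal. The olfactory mucosa is thin, well supplied with blood, and covered by moving air during breathing. Its odor-sensing neurons are replaced throughout life from basal cells.

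The core of the HIF binding motif is ACGTG or GCGTG. It was searched on both strands in the 250 bases before the first listed transcription start of each gene, taken from RefSeq on GRCm38.p6, and overlapping matches were counted as 1 place. The table held 9 of the 10 genes, Ndrg1 being the one not matched. A match was present in 8 of these 9 windows (88.9%), against 12679 of 32851 windows (38.6%) over all promoters in the table. The 9 were 1 window per gene, while among the 32851 a gene with several listed starts has several. The genes were also chosen as known HIF targets, so the higher share is a description and no test. The 9 windows had a median GC content of 62.8%, against 52.4% over all windows, so base composition differed as well. A match is a run of letters and not a measured binding site. The promoters of 4 genes are shown, 5′ to 3′ on the strand of the gene, with the motif on either strand in capitals (on the opposite strand it reads CACGT or CACGC). Vegfa is shown as the gene whose sides did not overlap, Pgk1 and Ldha as the glycolysis genes of textbook HIF promoters, and Bnip3 for holding the most matches of the 9.
Vegfa: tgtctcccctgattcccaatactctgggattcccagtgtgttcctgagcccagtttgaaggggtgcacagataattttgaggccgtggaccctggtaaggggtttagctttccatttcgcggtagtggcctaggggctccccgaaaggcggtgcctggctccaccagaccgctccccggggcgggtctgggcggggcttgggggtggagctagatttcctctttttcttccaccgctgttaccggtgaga
Pgk1: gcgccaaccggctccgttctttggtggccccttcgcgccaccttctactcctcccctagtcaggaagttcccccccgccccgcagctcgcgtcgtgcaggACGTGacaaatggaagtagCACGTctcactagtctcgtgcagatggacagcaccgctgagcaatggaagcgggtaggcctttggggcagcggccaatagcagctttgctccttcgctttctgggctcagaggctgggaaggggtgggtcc
Ldha: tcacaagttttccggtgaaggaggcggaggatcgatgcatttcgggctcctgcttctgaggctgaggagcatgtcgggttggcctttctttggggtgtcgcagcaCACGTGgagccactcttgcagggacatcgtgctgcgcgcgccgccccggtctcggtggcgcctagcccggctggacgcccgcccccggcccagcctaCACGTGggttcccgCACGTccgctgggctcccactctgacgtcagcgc
Bnip3: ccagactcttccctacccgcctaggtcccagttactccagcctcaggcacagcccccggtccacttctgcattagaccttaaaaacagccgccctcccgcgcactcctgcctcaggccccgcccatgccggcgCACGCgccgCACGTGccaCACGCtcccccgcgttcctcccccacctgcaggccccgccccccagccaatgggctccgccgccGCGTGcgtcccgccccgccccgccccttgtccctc
The windows lie at chr17:46032378-46032627 (minus strand, Vegfa), chrX:106186850-106187099 (plus strand, Pgk1), chr7:46845554-46845803 (plus strand, Ldha) and chr7:138909507-138909756 (minus strand, Bnip3). Ldha had 3 places, of which 2 read CACGTG, a form that matches on both strands. Bnip3 had 4 places and Pgk1 2. Adm, Slc2a1 and Hk2 had 2 places each, and Car9 and Egln3 1 each. The Vegfa window had 0, which says only that these letters are absent from this window.

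None of the 10 genes was called in any of the 3 comparisons. Values are log2 of the array intensity after quantile normalization, each the mean of 3 arrays, and differences are on the same log2 scale. The test was limma's moderated test with Benjamini-Hochberg adjustment over all 29922 probes and a threshold of 0.05. In occluded against open mucosa 0 of 10 members were called, where 66 of all probes (0.221%) were. In occluded against normal mucosa 0 of 10 were called, where 2 of all probes (0.00668%) were, and in open against normal mucosa 0 of 10, where 0 of all probes (0%) were. No member reached an unadjusted p of 0.05 in any comparison. Of all 29922 probes 1852, 861 and 477 did, so a count of 0 among 10 does not set the members apart. Background shares this low leave little room for a count among 10 genes, so the interval of each difference is given as well.

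All 10 differences between occluded and open mucosa were nevertheless below 0, from -0.28 for Vegfa to -0.017 for Hk2, with a median of -0.20. Over all probes the median difference was 0.0042 and 49.3% of probes were below 0. The 10 differences share the same 6 samples, so they are not 10 separate pieces of evidence. For Slc2a1, Hk2, Pgk1 and Ldha the sign leaned on 1 pair of samples, described further on. The 5th and 95th percentiles over all probes were -0.58 and 0.56, and every member lay inside them. Against normal mucosa the occluded side had 3 members higher and 7 lower with a median of -0.10, and the open side had 9 higher and 1 lower with a median of 0.13. The first of these medians was -0.0039 without normalization between arrays, where the median over all probes was 0.073 with 38.0% below 0. The members' median was -0.0023 without replicate 1 and -0.017 without replicate 3 of both sides, each with 5 of 10 lower. It was 0.012 without normal replicate 3, with 4 of 10 lower. The second ran from 0.040 to 0.24 with single replicates left out. The open side had 4 of 10 lower than normal without replicate 3 of both sides, and 3 of 10 lower without normal replicate 1 or 2. Over all probes the median was 0.0063 with 49.0% below 0 for occluded minus normal. For open minus normal it was -0.0038 with 50.9% below 0. These comparisons share samples with each other, so their values stand side by side and are not repeats.

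**Figure D1:**
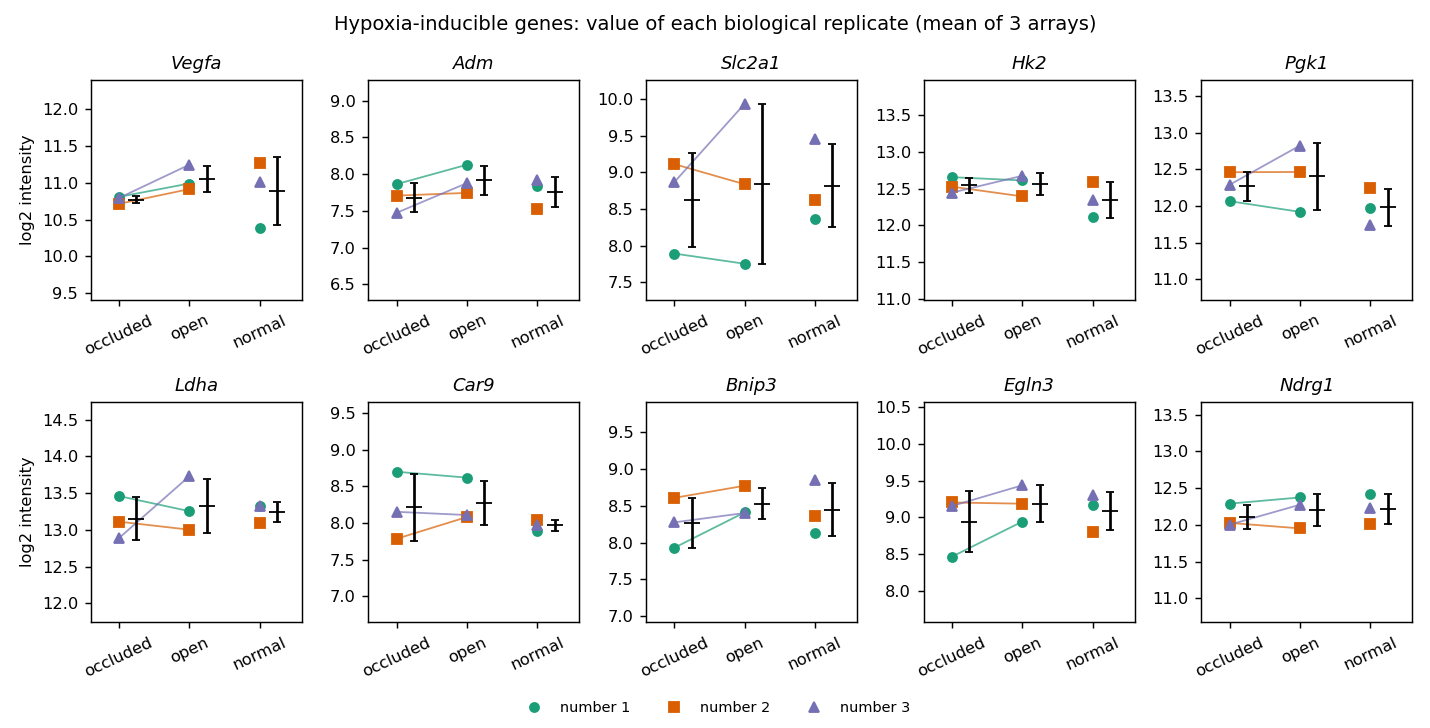
Log2 intensity (vertical axis, 3 units in every panel) of each hypoxia-inducible gene in occluded, open and normal mucosa. Each symbol is 1 biological replicate, lines join both sides of the same number, and black bars are the mean and SD of 3 replicates; the groups overlap in every panel except occluded against open for Vegfa and open against normal for Car9.

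The labels could be checked on genes that depend on odor stimulation. S100a5, a calcium-binding protein of stimulated olfactory neurons, had a mean of 13.81 in occluded, 15.88 in open and 15.96 in normal mucosa. It fell by 2.07 ± 0.18 (SE) in occluded against open mucosa (limma, adjusted p = 0.0095), and 12 of its 27 arrays were saturated, so the size is compressed. Kirrel2, a cell adhesion molecule of olfactory axons, fell by 1.89 ± 0.28 (adjusted p = 0.048). When pairs entered as a fixed replicate block, 0 of all probes were called, these 2 genes included. Kirrel3, the counterpart of Kirrel2 that is known to run opposite to activity, differed by 0.96 ± 0.15 (adjusted p = 0.064), short of the threshold. In occluded against normal mucosa 0 of 6 odor-activity genes, these included, were called (limma, smallest adjusted p 0.066). Their differences there reached -2.15, so the count of 0 members called in that comparison says little about smaller changes. Array medians lay between 123 and 274 intensity units, and the noise limit, set for each array at 3 root mean squares of the negative values, lay between 11.6 and 24.1. None of the 11 member probes was below the noise limit or saturated on any array.

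The first pair of members encode secreted signals to blood vessels. Vegfa, the main growth factor for new vessels, read 10.81, 10.71 and 10.79 in occluded replicates 1 to 3. In open replicates 1 to 3 it read 10.99, 10.91 and 11.25, and in normal ones 10.38, 11.27 and 11.02. Every occluded value was below every open value, and the normal samples spanned both sides. The means were 10.77 ± 0.051 in occluded, 11.05 ± 0.17 in open and 10.89 ± 0.46 in normal mucosa (SD, n = 3). The difference, occluded minus open, was -0.28 ± 0.19 (SE) with a 95% interval from -0.71 to 0.16 (limma, adjusted p = 0.958). That interval corresponds to between 0.610 and 1.11 times the open level. Vegfa was the only member of 10 with every occluded value below every open value, a pattern held by 2.94% of all probes. Against normal mucosa the occluded side differed by -0.12 ± 0.24 and the open side by 0.16 ± 0.24. Normal replicate 1 was the lowest of the 9 Vegfa values, and its 3 arrays had an SD of 0.54.

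Adm encodes adrenomedullin, a peptide that widens vessels. It read 7.86, 7.71 and 7.47 in occluded, 8.13, 7.75 and 7.88 in open and 7.83, 7.52 and 7.92 in normal mucosa. The groups overlapped throughout. The difference, occluded minus open, was -0.24 ± 0.16 (SE), with an interval from -0.59 to 0.12 and an upper end of 1.09 times the open level (limma, adjusted p = 0.957). This was the lowest upper end among the 10 members. Occluded minus normal was -0.077 ± 0.20, and open minus normal 0.16 ± 0.20. Its intensity lay between 163 and 328 units over the 27 arrays, all above the noise limit.

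The next 4 members bring in and burn glucose without oxygen. Slc2a1 encodes the glucose transporter GLUT1 and was the most variable of the 10. It read 7.89, 9.11 and 8.86 in occluded, 7.76, 8.84 and 9.93 in open and 8.37, 8.62 and 9.46 in normal mucosa. The range within each group was wider than any difference between group means, which were 8.62 ± 0.64, 8.84 ± 1.09 and 8.82 ± 0.57 (SD, n = 3). Occluded mucosa differed from open by -0.22 ± 0.42 (SE), with an interval from -1.17 to 0.73, or between 0.444 and 1.66 times the open level (limma, adjusted p = 0.997). A rise or a fall of a size outside the other members' intervals lay inside this one. The 3 arrays of a Slc2a1 replicate had a mean SD of 0.43, the highest of the 10 members.

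Hk2 encodes hexokinase 2, which traps glucose in the cell. It read 12.66, 12.53 and 12.45 in occluded, 12.61, 12.40 and 12.67 in open and 12.11, 12.59 and 12.34 in normal mucosa. Both sides lay within the same narrow band, and normal replicates 1 and 3 stood below all 6 of these values. The sides differed by -0.017 ± 0.15 (SE), with an interval from -0.36 to 0.33, or 0.779 to 1.25 times the open level (limma, adjusted p = 0.9997). The sign of this difference turned to 0.019 without normalization between arrays and to 0.069 with median centring. Against normal mucosa the occluded side differed by 0.20 ± 0.19 and the open side by 0.21 ± 0.19.

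Pgk1 encodes phosphoglycerate kinase, an ATP-making step of glycolysis. Its values were 12.07, 12.46 and 12.29 in occluded, 11.92, 12.46 and 12.82 in open and 11.98, 12.24 and 11.74 in normal mucosa. Open replicate 3 was the highest of the 9 and normal replicate 3 the lowest. Occluded minus open was -0.13 ± 0.20 (SE), with an interval from -0.59 to 0.33 (limma, adjusted p = 0.997). Occluded minus normal was 0.29 ± 0.26, the highest of the members, with an upper end of 1.84 times the normal level (adjusted p = 0.99999). The open side differed from normal by 0.42 ± 0.26.

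Ldha encodes the lactate dehydrogenase subunit that turns pyruvate into lactate. It read 13.46, 13.11 and 12.89 in occluded, 13.26, 13.00 and 13.73 in open and 13.33, 13.09 and 13.32 in normal mucosa. Replicates 1 and 2 were within 0.21 of each other between the sides, and replicate 3 was -0.84 apart. Occluded minus open was -0.18 ± 0.21 (SE), with an interval from -0.66 to 0.31, or 0.635 to 1.24 times the open level (limma, adjusted p = 0.997). Occluded minus normal was -0.093 ± 0.27, and open minus normal 0.082 ± 0.27. The mean SD between the 3 arrays of an Ldha replicate was 0.078, the smallest of the 10 members, which covers repeat arrays and not the spread between mice.

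Car9 encodes carbonic anhydrase 9, a surface enzyme that helps export acid and is a widely used marker of hypoxic tissue. It read 8.70, 7.78 and 8.15 in occluded, 8.62, 8.08 and 8.11 in open and 7.89, 8.04 and 7.97 in normal mucosa. The occluded values lay on both sides of the normal ones, while all 3 open values were above all 3 normal values. That last pattern was held by 1 of 10 members and by 2.06% of all probes. Between the sides the difference was -0.057 ± 0.19 (SE), with an interval from -0.49 to 0.38, an upper end of 1.30 times (limma, adjusted p = 0.9997). Occluded minus normal was 0.24 ± 0.24 and open minus normal 0.30 ± 0.24. Replicate 1 was the highest Car9 sample on the occluded side and also on the open side, and without it these differences were 0.0015 and 0.13.

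Bnip3 encodes a mitochondrial membrane protein that directs damaged mitochondria to autophagy. It read 7.93, 8.61 and 8.28 in occluded, 8.41, 8.77 and 8.40 in open and 8.14, 8.36 and 8.85 in normal mucosa. The groups overlapped, although the occluded sample was the lower one in each of the 3 pairs. Occluded minus open was -0.26 ± 0.20 (SE), with an interval from -0.70 to 0.19, an upper end of 1.14 times (limma, adjusted p = 0.976). Occluded minus normal was -0.18 ± 0.25, and open minus normal 0.081 ± 0.25.

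Egln3 encodes an oxygen-sensing prolyl hydroxylase that is itself induced by HIF and so damps the response. It read 8.46, 9.20 and 9.15 in occluded, 8.94, 9.19 and 9.44 in open and 9.17, 8.80 and 9.30 in normal mucosa. Only occluded replicate 1 lay below all normal samples. Occluded minus open was -0.25 ± 0.20 (SE), with an interval from -0.69 to 0.20, an upper end of 1.15 times (limma, adjusted p = 0.979). Occluded minus normal was -0.15 ± 0.25, and open minus normal 0.099 ± 0.25.

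Ndrg1 encodes a cytoplasmic stress-response protein induced in many hypoxic cells. Its brighter probe read 12.29, 12.03 and 12.00 in occluded, 12.37, 11.95 and 12.27 in open and 12.41, 12.01 and 12.23 in normal mucosa. The values of the 3 groups covered nearly the same range. The occluded side differed from the open side by -0.094 ± 0.15 (SE), with an interval from -0.44 to 0.26, an upper end of 1.19 times (limma, adjusted p = 0.997). The dimmer probe read 6.58, 7.67 and 7.81 in occluded, 6.39, 7.58 and 8.41 in open and 6.95, 7.70 and 7.92 in normal mucosa. Its difference was -0.11 ± 0.38, near that of the brighter probe but with a wider interval, from -0.97 to 0.76. The 2 probes disagreed on which samples were high. Replicate 1 was the lowest of its group at the dimmer probe in all 3 groups and the highest at the brighter one.

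**Figure D2:**
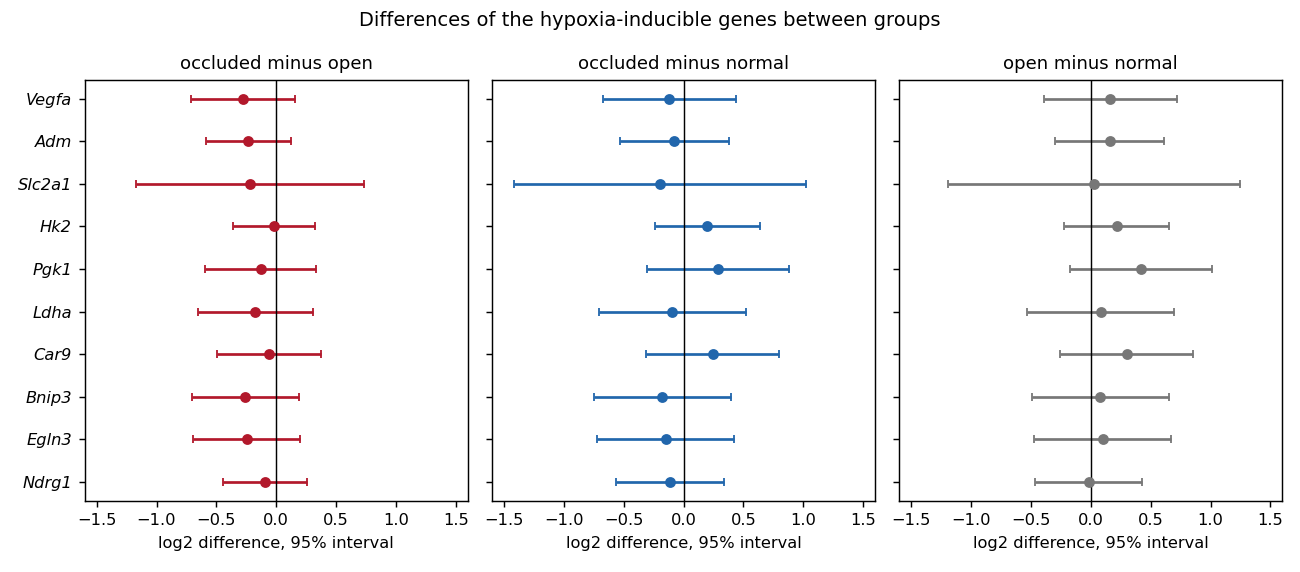
Difference in log2 intensity (horizontal axis) between occluded and open, occluded and normal, and open and normal mucosa for each of the 10 genes. Points are limma estimates and bars 95% intervals without adjustment for multiple tests; all 30 intervals include 0, and that of Slc2a1 is the widest in each panel.

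Placed together, the 95% intervals put the upper end of the occluded to open ratio between 1.09 (Adm) and 1.30 (Car9) for 9 of the members and at 1.66 for Slc2a1. Against normal mucosa the upper ends were higher, between 1.26 (Ndrg1) and 1.84 (Pgk1) for 9 members and 2.04 for Slc2a1. The comparison with normal mice lacks the within-animal match, which was itself read from equal numbers. Its intervals were wider by the same factor for every gene, which the single consensus correlation of the fit (0.389) imposes. Each upper end is the highest ratio inside the interval and not a limit of detection. The upper ends depend on single replicates. Without replicate 3 of both sides, occluded minus open moved from -0.18 to 0.16 ± 0.17 (SE) for Ldha. For Slc2a1 it moved from -0.22 to 0.21 ± 0.35, and 6 of 10 members stayed below 0. The upper ends also depend on the random block. Without a replicate block the SE of occluded minus open was larger for every member, 0.24 instead of 0.19 for Vegfa and 0.20 instead of 0.16 for Adm. With pairs as a fixed block it rose for some members (Ldha, 0.21 to 0.27) and fell for others (Vegfa, 0.19 to 0.16). Occluded and normal values overlapped for all 10 members, so 0 of 10 were separated, where 6.67% of all probes were.

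Occluded and open samples of equal number were read as 1 pair, which the labels do not state. The 3 pairs did not behave alike. In pair 1 the median difference over the members was -0.020 with 5 of 10 below 0, and in pair 2 it was 0.0067 with 5 of 10 below 0. In pair 3 it was -0.34 with 9 of 10 below 0. Over all probes the medians were 0.024, 0.011 and 0.0049, with 47.4%, 48.8% and 49.6% below 0. Quantile normalization holds these all-probe medians near 0, so they do not show whether an array as a whole was shifted. The 4 glucose genes made up most of the contrast, with medians of 0.14 and 0.12 in pairs 1 and 2 and -0.69 in pair 3. Slc2a1 gave 0.14, 0.27 and -1.07 in the 3 pairs, and Ldha 0.21, 0.11 and -0.84. Pgk1 gave 0.15, -0.0033 and -0.53. Open replicate 3 held the highest of the 9 values for Slc2a1, Hk2, Pgk1, Ldha and Egln3.

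Without pair 3 the median over the members was -0.056 with 6 of 10 below 0, and Slc2a1, Ldha, Hk2 and Pgk1 stood at 0.21, 0.16, 0.089 and 0.071. Without pair 1 it was -0.18 with 10 below 0, and without pair 2 -0.31 with 9 below 0. That all 10 genes shared a sign thus rested on the third pair for Slc2a1, Ldha, Hk2 and Pgk1, and on the second for Car9. Vegfa, Adm and Bnip3 were below 0 in all 3 pairs, which is 3 of 10 members, and 12.6% of all probes were. Vegfa gave -0.18, -0.20 and -0.45. Adm gave -0.26, -0.038 and -0.41, and Bnip3 -0.48, -0.16 and -0.13. Egln3 was at -0.48, 0.017 and -0.28.

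**Figure D3:**
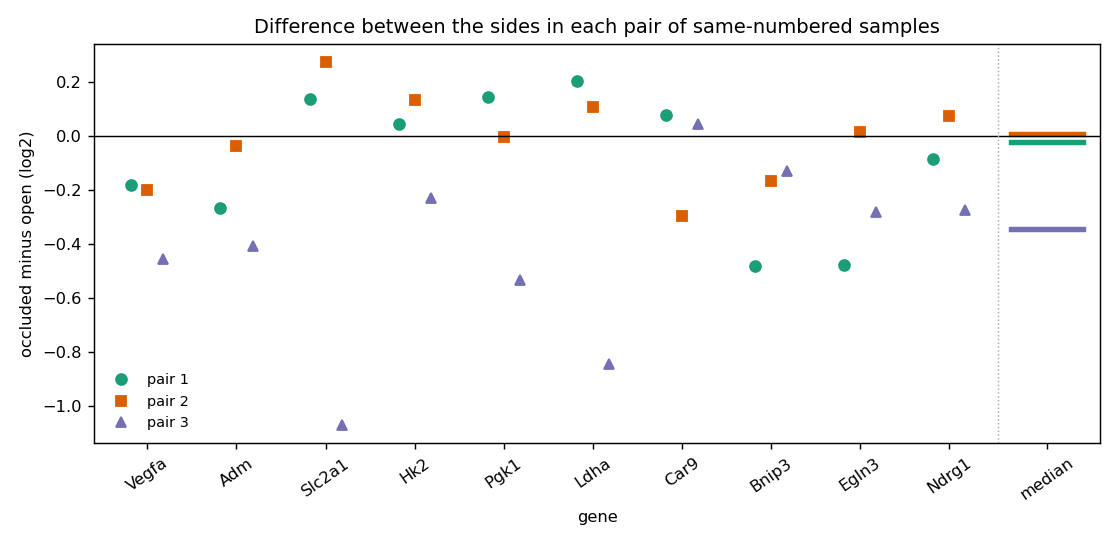
Occluded minus open log2 intensity (vertical axis) in each of the 3 pairs of same-numbered samples, by gene, with the median over the 10 genes at the right. Pair 3 has a median of -0.34 while pairs 1 and 2 lie at -0.020 and 0.0067.

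The range between the means of the 3 numbers was set beside the difference between the 2 sides. Averaged over the 3 groups, Slc2a1 stood at 8.01, 8.86 and 9.42 in numbers 1, 2 and 3, a range of 1.41. The range exceeded the difference between the sides for 10 of 10 members, and for 81.0% of all probes, so it is not a trait of these genes. A range over 3 means tends to exceed a difference between 2. These shares therefore do not show that numbers differed more than sides. Hk2 had the smallest range, 0.045. The sources used here do not say whether equal numbers of normal and treated mice share a litter, day or slide.

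As a description of which transcripts ran alongside Vegfa, the 9 values of 16042 other named genes were correlated with its own. The 3 highest Pearson correlations were with Zpbp (0.97), Mfn1 (0.95) and Vegfd (0.94), over 9 samples that share the mice. Zpbp encodes a sperm protein and was below the noise limit on 14 of 27 arrays. Mfn1 encodes a mitochondrial fusion protein, and Vegfd a growth factor for lymphatic vessels. Among the other members Hk2 was nearest, at 0.68, then Slc2a1 at 0.36, and Pgk1 and Bnip3 at 0.31. Ldha stood at 0.21, Car9 at 0.18, Egln3 at 0.017, Adm at -0.0050 and Ndrg1 at -0.24. No value is tested, since the highest of many correlations over 9 samples are high by selection.

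The wider pathway was described with 6 lists of 82 genes, of which 74 had a probe, here called measured. Of these probes, that of Cox4i2 was below the noise limit on 27 of 27 arrays and that of Calcrl on 25, so their directions carry no information. None of the 74 was called in any of the 3 comparisons (limma, threshold 0.05). Of them, 30 were higher and 44 lower in occluded than in open mucosa, with 2 at an unadjusted p below 0.05. Against normal mucosa 39 were higher and 35 lower, with 1 below that p, and for open against normal 43 were higher and 31 lower, with 0. Over all 29922 probes 49.3%, 49.0% and 50.9% were lower in the 3 comparisons, and 1852, 861 and 477 were below that p.

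Among the HIF subunits and oxygen sensors, 11 of 11 were measured, and the median, occluded minus open, was -0.024 with 5 higher and 6 lower. Epas1, the HIF-2 alpha subunit, differed by 0.27 ± 0.17 (SE), and Egln1, the main oxygen-sensing prolyl hydroxylase, by 0.20 ± 0.15. Arnt2, an alternative partner subunit, differed by -0.18 ± 0.16 (limma, smallest adjusted p of the list 0.953, for Epas1). Hif1a, whose protein and not its transcript is the oxygen-regulated step, differed by -0.20 ± 0.22.

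The glycolysis list had 19 of 22 genes measured and a median of 0.0013, with 10 higher and 9 lower. Gapdh, a glycolytic dehydrogenase, differed by -0.34 ± 0.17 (SE), Pfkp, a phosphofructokinase, by 0.48 ± 0.28 and Hk1, the constitutive hexokinase, by -0.25 ± 0.21. Pfkp was below the noise limit on 3 of 27 arrays. The Gapdh probe was above it on all 27 but dim, with a mean of 5.84, against 15.23 for Tpi1 of the same list. How well this probe reports the Gapdh transcript was not tested.

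Of the genes for vessel growth and tone, 16 of 17 were measured, with a median of -0.18, 3 higher and 13 lower. Pgf, placental growth factor and a relative of Vegfa, differed by 0.37 ± 0.14 (SE), with an unadjusted p of 0.028 and an adjusted p of 0.702. Its means were 9.21 in occluded, 8.84 in open and 8.89 in normal mucosa. Angpt2, which loosens vessel walls, differed by -0.36 ± 0.21, and Flt1, a Vegfa receptor, by -0.76 ± 0.48. Endothelial markers, 9 of 10 measured, had a median of -0.021 with 4 higher and 5 lower. Their mean level over genes ran from 9.85 to 10.26 in occluded, 9.83 to 10.22 in open and 9.93 to 10.15 in normal samples.

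The oxygen supply, iron and acid list had 7 of 8 measured and a median of -0.03, with 3 higher and 4 lower. Trf, transferrin, which carries iron in blood, differed by -0.48 ± 0.17 (SE; unadjusted p = 0.021, adjusted p = 0.638). Its means were 8.87, 9.35 and 9.38 in occluded, open and normal mucosa. Epo, the hormone for red cell formation, differed by 0.23 ± 0.17, and Hmox1, heme oxygenase, by 0.37 ± 0.40.

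The mitochondria, autophagy and stress list had 13 of 15 measured, with a median of -0.046 and 5 higher, 8 lower. Stc2, a secreted calcium regulator, differed by 0.63 ± 0.28 (SE; unadjusted p = 0.054, adjusted p = 0.818), with the open mean of 7.04 below both the occluded mean of 7.67 and the normal mean of 7.55. Ddit4, an inhibitor of mTOR signalling, differed by -0.60 ± 0.43, and Wsb1, part of a ubiquitin ligase, by -0.13 ± 0.15. The matrix and histone hydroxylases, 8 of 9 measured, had a median of -0.039 with 4 higher and 4 lower. Plod2, a collagen lysyl hydroxylase, differed by 0.26 ± 0.13, its relative Plod1 by -0.27 ± 0.17 and Loxl2, a collagen crosslinking oxidase, by -0.40 ± 0.22 (smallest adjusted p of the list 0.873).

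**Figure D4:**
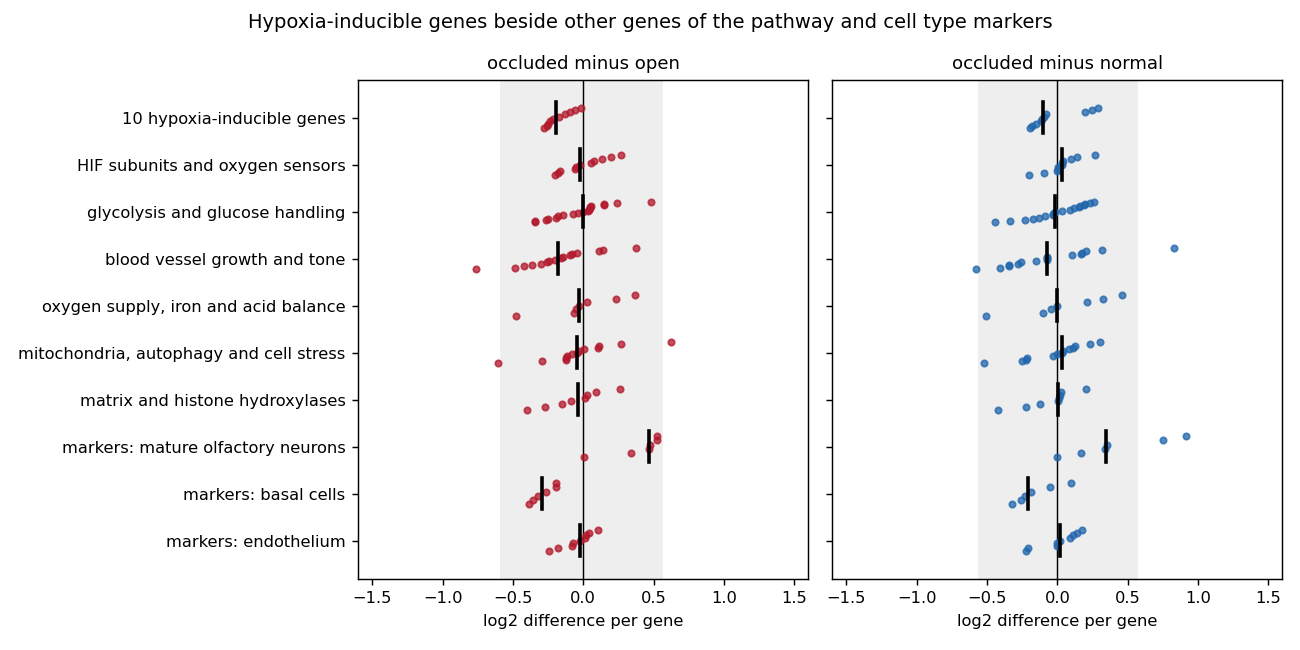
Log2 difference of each gene (points) and its list median (black bars), occluded minus open on the left and occluded minus normal on the right, for the 10 hypoxia-inducible genes, 6 further pathway lists and 3 lists of cell type markers. The grey band spans the 5th to 95th percentile over all probes; the members' median is -0.20 on the left and -0.10 on the right, and that of mature olfactory neurons on the left is 0.47.

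Cell type markers also differed in median between the sides. Markers of mature olfactory neurons, 6 of 7 measured, were bright in all samples, in keeping with the labelled tissue. They had a median of 0.47 with 6 of 6 higher in occluded mucosa and 0 called. An unadjusted p below 0.05 was held by 4 of them, and by 1852 of all 29922 probes. The mean level of these markers ran from 14.44 to 14.66 in occluded, 14.09 to 14.22 in open and 13.87 to 14.34 in normal samples. Basal cell markers had a median of -0.29 with 6 of 6 lower and 0 called, and levels from 9.46 to 9.73, 9.85 to 10.04 and 9.72 to 9.84. Immature neuron markers had a median of -0.23 with 6 of 6 lower, immune markers -0.23 with 6 of 8 lower, respiratory epithelium -0.21 with 4 of 6 lower and sustentacular cells -0.17 with 5 of 6 lower. Mean levels of the 10 hypoxia-inducible genes ran from 10.21 to 10.33 in occluded, 10.30 to 10.65 in open and 10.16 to 10.41 in normal samples. No marker gene of these lists was below the noise limit on all 9 arrays of a group. Whether a different mix of cells has a part in the members' values was not tested.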

How the data were processed

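Amplified RNA from the mucosa carried the dye Cy5, with 1 sample on an array, per the labels' protocols. The values are linear probe intensities as deposited by the authors, from which the background had been subtracted (1.45% to 3.93% of values on each array were 0 or negative). The sources used here do not name the scanner, background method or scaling. A floor of 0.912, the smallest positive value, was applied and log2 taken. Because array medians differed by 1.15 log2, quantile normalization followed, and averaging the 3 arrays of each replicate gave 9 values. Groups were fitted with limma 3.58.1 (R 4.3.3, statmod 1.5.0), taking individuals as random blocks with a consensus correlation of 0.389, and tests were two-sided. The script was tested on simulated data. The design text states that open and occluded samples are from the same individuals, and equal numbers were read as 1 individual (6 in all). Deviations from the group means correlated at 0.52, -0.0044 and 0.14 in the 3 pairs. Between occluded and normal samples of equal number, which are different mice, they correlated at 0.35, 0.067 and 0.0015. For open and normal samples the values were 0.39, 0.10 and 0.071. A correlation by number therefore does not show that equal numbers are 1 individual, and the random block left out numbers shared with normal mice. With the block as a fixed term no member's call changed.

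Symbols were read from the platform's annotation (21020 probes with 1 symbol, 8902 unnamed), with 2728 symbols updated through RefSeq names. The members, lists and alternatives were chosen with earlier results of these data known. Genes named beside the members were, of each pathway list, the 3 with the smallest p in occluded against open mucosa, the 3 genes most correlated with Vegfa, and S100a5, Kirrel2 and Kirrel3. Hif1a was named outside this rule, after its values were seen. So were Tpi1, for its brightness, and Cox4i2 and Calcrl, for lying below the noise limit on most or all arrays. Marker lists not described in the text, all occluded minus open, had medians of -0.10 (blood, 2 of 8 measured), -0.11 (Bowman gland, 5 of 6), 0.17 (glia, 3 of 6), 0.064 (bone and cartilage, 5 of 6), 0.024 (skeletal muscle, 6 of 6) and 0.065 (olfactory bulb or brain, 6 of 6). With 3 replicates a group, precision is limited by their number.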

Additional observations from a re-analysis of the deposited data

How the results depend on the processing

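Alternatives covered the block, the normalization, the floor and offset, dim probes, averaging, the prior and each replicate left out. No member was called under any of them, over 490 single values, and the smallest adjusted p was 0.50 in occluded against open, 0.9997 in occluded against normal and 0.91 in open against normal mucosa. With pairs fitted as a fixed replicate block 0 of 10 members were called; the median over the members is -0.20 there by construction, since a balanced block leaves differences of means as they are. Calls over all probes in occluded against open mucosa moved from 66 to 0 with that replicate block, 2 with the number as a fixed block, 3 with no replicate block, 0 without normalization, 37 with median centring and 102 with a trended robust prior. Without replicate 1, 2 or 3 of both sides they were 0, 35 and 6. The cause was not tested. In all, 7 of 170, 9 of 160 and 13 of 160 values changed sign in the 3 comparisons. These totals include settings that left an estimate as it was, so they overstate how stable the signs were. The block, the prior, the floor and leaving out dim probes changed no member's difference. Leaving out a normal replicate cannot change occluded minus open.

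Besides Hk2, whose occluded minus open value was 0.019 without normalization and 0.069 with median centring, Ldha turned to 0.037 in occluded minus normal without normalization. Ndrg1 turned in open minus normal to 0.070 without normalization and 0.0037 with the median of the arrays. Without normalization the medians over all probes were -0.030 in occluded minus open, 0.073 in occluded minus normal and 0.098 in open minus normal. Leaving out single replicates, occluded minus open ran from -0.13 to 0.062 for Car9, -0.092 to 0.089 for Hk2, -0.37 to 0.16 for Ldha, -0.27 to 0.071 for Pgk1 and -0.46 to 0.21 for Slc2a1. Occluded minus normal ran from -0.19 to 0.027 for Adm, -0.35 to 0.022 for Bnip3, -0.30 to 0.089 for Egln3, -0.25 to 0.040 for Ldha, -0.44 to 0.17 for Slc2a1 and -0.37 to 0.072 for Vegfa. Open minus normal ran from -0.076 to 0.28 for Bnip3, -0.048 to 0.22 for Egln3, -0.12 to 0.25 for Ldha, -0.12 to 0.11 for Ndrg1, -0.52 to 0.57 for Slc2a1 and -0.093 to 0.35 for Vegfa. Every member probe was above the noise limit on all 27 arrays. The consensus correlation of the fit sets how much wider the intervals against normal mucosa are. What else sets the width of each interval was not tested.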
